A study of Mus musculus with 6 samples.

Results

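A group of 10 germ cell genes that handle RNA, hold transposons in check or serve spermatogenesis is described here across 2 mouse embryonic stem cell lines and 3 days: Dazl, Ddx4, Mael, Tdrd1, Asz1, Piwil2, Mov10l1, Tex19.1, Tex19.2 and Slc25a31. They are 10 of 18193 genes that the array names singly. They are read by 12 of its 45037 probe sets, which are groups of short probes for 1 transcript. Where a gene had more than 1 probe set, the one with the highest mean signal was its level. Both lines come from triple knockout (TKO) embryonic stem cells, which lack Dnmt1, Dnmt3a and Dnmt3b, the genes of the DNA methyltransferases. Into these cells a DNMT1 that is expressed throughout was put back, either full-length (full-length line) or without its N-terminal 602 amino acids (deletion line). Day 0 cells were stem cells in medium with 10% FBS and LIF, the cytokine that keeps them undifferentiated. For day 4 they formed embryoid bodies for 1 day and grew attached for 3 more, without LIF. For day 7 another 3 days followed with 10 ng/ml Activin A in medium containing 10% KSR, meant by the submitters to bring on primitive streak formation. Each line and day had 1 array, so no value has a replicate. Each form of DNMT1 was in 1 line, and whether a line is 1 clone is not given in the sources used here, so the form of DNMT1 and the line that carries it cannot be told apart. No wild-type cells and no TKO cells without DNMT1 were among the 6 arrays.

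Germ cells protect their genome with piRNAs, small RNAs that PIWI proteins carry to transposon transcripts. The transcripts are cut, and in the male fetal germ line the transposon DNA is then methylated. Much of this takes place in nuage, granules beside mitochondria that hold DDX4, MAEL, ASZ1 and Tudor proteins. The promoters of many such genes are rich in CpG and are methylated and silent in somatic cells, and mouse embryonic stem cells express a number of them.

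The upstream sequences of 4 members are shown because these had the largest differences between the lines at day 7 and range widely in CpG content. They are RefSeq sequences of build GRCm38.p6, the 250 bases before the annotated start, 5′ to 3′ on the gene's strand, with every CpG in capitals. The windows are chr17:50293621-50293870 on the minus strand for Dazl, chr11:121145893-121146142 on the plus strand for Tex19.1, chr11:121118678-121118927 on the minus strand for Tex19.2 and chr3:40708621-40708870 on the plus strand for Slc25a31.
Dazl: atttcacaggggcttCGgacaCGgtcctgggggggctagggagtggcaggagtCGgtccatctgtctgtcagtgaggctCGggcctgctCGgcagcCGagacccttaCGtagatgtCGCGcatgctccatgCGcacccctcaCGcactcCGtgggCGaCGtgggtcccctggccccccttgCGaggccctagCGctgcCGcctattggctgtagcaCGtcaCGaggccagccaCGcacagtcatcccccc
Tex19.1: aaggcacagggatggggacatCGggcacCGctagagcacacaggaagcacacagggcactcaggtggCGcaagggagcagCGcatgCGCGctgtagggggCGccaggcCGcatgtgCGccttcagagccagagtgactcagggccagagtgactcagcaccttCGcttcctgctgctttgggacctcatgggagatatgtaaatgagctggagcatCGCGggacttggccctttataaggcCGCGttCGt
Tex19.2: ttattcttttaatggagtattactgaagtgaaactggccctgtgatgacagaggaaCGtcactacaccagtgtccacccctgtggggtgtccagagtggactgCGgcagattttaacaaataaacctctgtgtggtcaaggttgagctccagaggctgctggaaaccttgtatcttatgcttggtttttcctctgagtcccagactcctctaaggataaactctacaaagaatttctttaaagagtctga
Slc25a31: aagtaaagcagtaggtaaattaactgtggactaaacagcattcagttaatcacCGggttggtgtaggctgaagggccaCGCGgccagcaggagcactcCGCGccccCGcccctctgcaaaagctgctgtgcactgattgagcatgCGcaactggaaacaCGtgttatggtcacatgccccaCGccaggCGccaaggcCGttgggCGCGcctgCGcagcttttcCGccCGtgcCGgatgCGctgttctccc
These stretches hold 20 CpG for Dazl, 15 for Tex19.1, 2 for Tex19.2 and 18 for Slc25a31. Tex19.1 and Tex19.2 are related genes on the same chromosome, and their upstream CpG content differed widely. Over the longer window of 250 bases before to 50 after the start, 9 of the 10 members were in the RefSeq table, all but Piwil2. In it Dazl had 28 CpG, Tex19.1 had 16, Asz1 17, Mov10l1 20, Slc25a31 22, Mael 24, Ddx4 38 and Tex19.2 had 2. Of 3 windows for Tdrd1 the richest had 25, and the others had 20 and 3. The median over 32851 mouse promoter windows was 7, and 33% of them had at least 16. In 8 of these 9 members the only or richest window had at least 16 too. The limit of 16 was set after the values were seen. The E-box CACGTG is a sequence that MAX and its partners bind and that reads the same on both strands. It was in a window of 5 of the 9 members (Mael, Slc25a31, Ddx4, Mov10l1 and Tdrd1). Counted by window, it was in 6 of the members' 11, and in 7.15% of all windows and 11.4% of those with at least 16 CpG. In Slc25a31 its first base lay 93 bases before the start. An E2F sequence, TTCGCGC or its reverse complement GCGCGAA, was in 1.59% of all windows, and TCGCGA in 2.5%. Neither was in a member's window. Only these exact forms were searched for, so other forms of an E2F site were not counted. DNA methylation was not measured on these arrays.

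**Figure D1:**
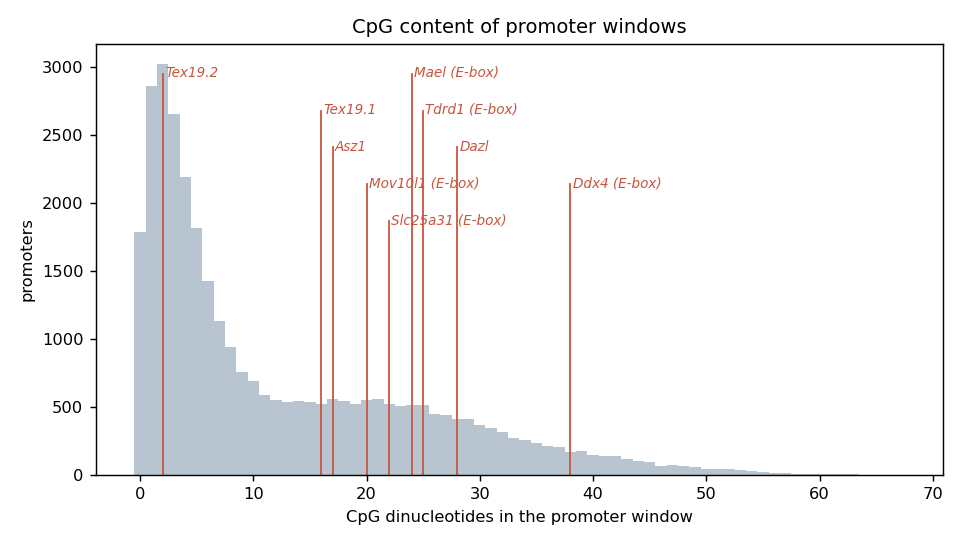
Number of promoters (vertical axis) by CpG dinucleotides in the window from 250 bases before to 50 after the start (horizontal axis, count), over 32851 RefSeq windows, with red lines at the richest window of each of 9 members and those holding the E-box marked. Tex19.2 lies at 2 CpG, and the other 8 members lie between 16 and 38.

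Levels are log2 MAS5 signals, relative to the mean of each array, and a signal under a floor of log2 5.37 was set to the floor. Averaged over the 6 arrays, the signal of 13277 genes reached the floor, and these were tested, with 9 of the 10 members among them. Tdrd1, a Tudor domain scaffold that binds PIWI proteins, was not measured: its single probe set read between 0.26 and 2.34. The 9 measured members were above the floor on all 6 arrays. For the deletion line at day 0 one label of the sample describes differentiated cells while its title gives day 0, and the title was used. On that array the 7 pluripotency markers were all above the floor, with a summed signal of 78400, against 52600 to 92100 on the other arrays. Trophoblast markers summed to 1310 on it and 1800 on full-length day 0, against 9880 to 44600 at days 4 and 7. Extraembryonic endoderm markers summed to 870 and 813, against 1800 to 5200. Feeder fibroblast markers summed to 14000 and 6270, against 894 to 1990. Primordial germ cell markers summed to 14600 and 16800, against 13200 to 28200. Which label of this array holds was not tested. Values from days 4 and 7, which do not use this array, are given beside those that do. In these bulk samples fewer cells of a type and less RNA per cell cannot be told apart.

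Of Dazl, Ddx4 and Mael, Dazl, which encodes an RNA-binding protein that controls translation in germ cells, had the widest span. For days 0, 4 and 7, the order used throughout, the full-length line read 11.40, 9.45 and 11.00 and the deletion line 10.48, 10.07 and 13.53. The day 7 array of the deletion line stood apart, 2.13 above the next highest, full-length day 0. Neighbours among the other 5 arrays were 0.40 to 0.62 apart, less than the residual SD of 0.65 from the fit. Here and below, that SD comes from an additive fit of line and day, so it includes the divergence of the lines. It is not a spread between replicates. A second Dazl probe set, dimmer throughout, read 9.59, 7.87 and 9.39 with full-length DNMT1 and 8.67, 8.20 and 12.31 with the deletion form. Both probe sets gave the same order of arrays.

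Ddx4, the VASA helicase of nuage, lay at 9.34, 9.31 and 9.06 with full-length DNMT1 and at 9.28, 9.34 and 10.09 with the deletion form. Its other 5 levels were within 0.28 of each other, and the deletion line at day 7 was 0.75 above them. Mael, a nuage protein needed for transposon silencing in the male germ line, lay at 9.42, 8.77 and 9.32 in the full-length line. In the deletion line it lay at 8.31, 8.98 and 10.01, the lowest and the highest of the 6 arrays being days 0 and 7 of that line.

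Of the piRNA machinery, Asz1 (also GASZ), which holds nuage at the mitochondrial surface, differed from the other members in its course. It was higher at each later day in both lines, with levels of 7.35, 8.61 and 9.07 (full-length) and of 6.35, 7.62 and 9.80 (deletion). Its second probe set ran likewise, with 6.64, 8.49 and 9.09 (full-length) and 6.50, 7.30 and 9.32 (deletion). Piwil2 encodes MILI, the PIWI protein that loads the first piRNAs. The full-length line read 9.04, 8.12 and 7.88, and the deletion line 8.29, 8.36 and 8.37, all 3 within 0.08 of each other. Mov10l1, the helicase that handles piRNA precursors, read 8.21, 7.57 and 7.49 with full-length DNMT1 and 7.67, 7.27 and 8.10 with the deletion form. For Piwil2 and Mov10l1 the highest array was full-length day 0, unlike the other 7 measured members, whose highest array was the deletion line's day 7. That array was the highest for 17.5% of all measured genes. For Mov10l1 full-length day 0 was only 0.11 above it, less than its residual SD of 0.38.

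TEX19 proteins occur in germ cells, stem cells and placenta, and TEX19.1 restrains retrotransposons. Tex19.1 lay at 11.81, 10.61 and 11.93 (full-length) and at 10.97, 11.02 and 13.23 (deletion). Tex19.2 lay at 8.01, 7.61 and 9.79 (full-length) and at 7.22, 7.59 and 11.34 (deletion). Both were highest at day 7 within each line, as were Asz1 and 15.6% of all genes, though for Tex19.1 days 0 and 7 of the full-length line were 0.12 apart, less than its residual SD of 0.42. Slc25a31, the ADP/ATP carrier of germ cell mitochondria, lay at 8.18, 9.49 and 8.97 with full-length DNMT1. With the deletion form it lay at 8.78, 8.84 and 11.07, the last of them 1.58 above the next highest array.

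**Figure D2:**
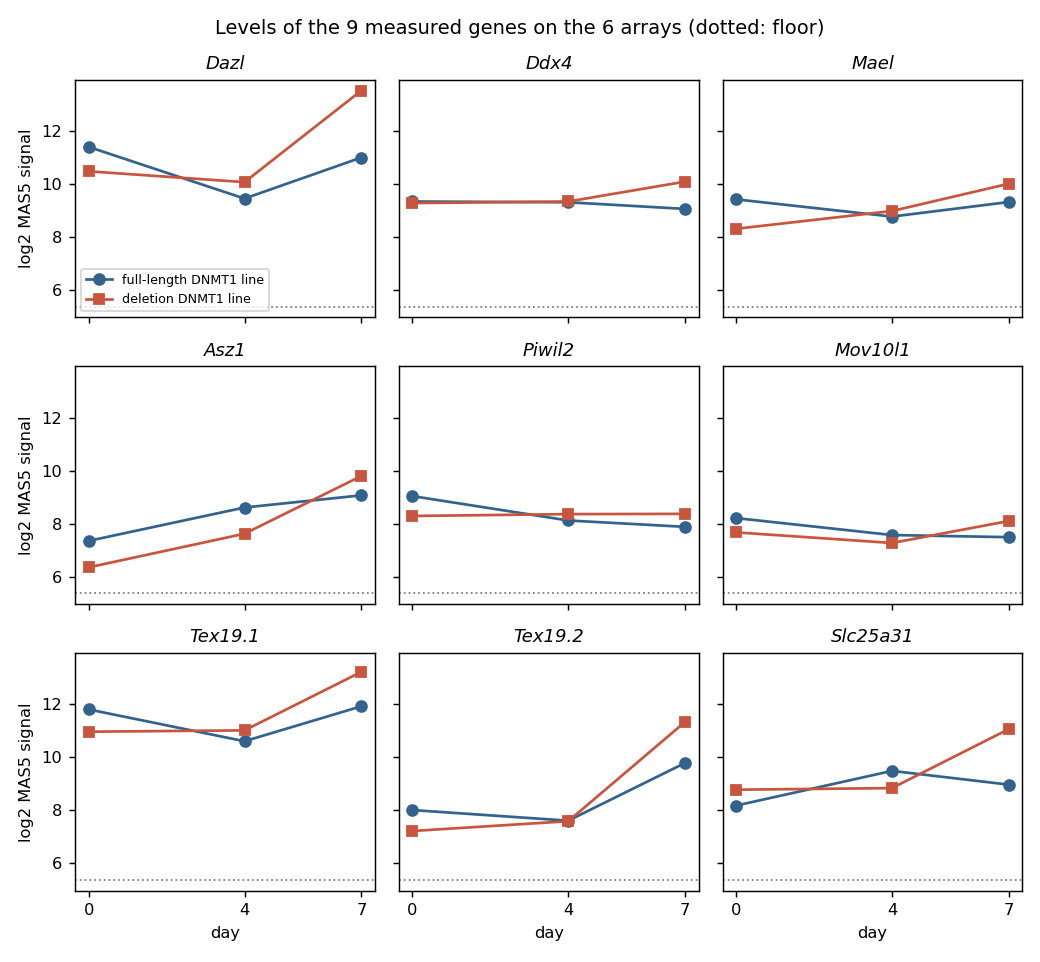
Log2 MAS5 signal (vertical axis) of each of the 9 measured members by day (horizontal axis) in the full-length line (blue circles) and the deletion line (red squares), with 1 array per point and the floor of 5.37 as a dotted line. The deletion line's day 7 point is the highest of the 6 for every member but Piwil2 and Mov10l1.

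At day 7 all 9 measured members were higher in the deletion line than in the full-length line, as were 44.8% of all measured genes, and 5 were at least 2-fold higher (3.95% of all genes). None was at least 2-fold lower (8.92% of all genes). Dazl differed 5.78-fold (log2 2.53), and 14 of the 13277 genes, Dazl included, differed at least as much in that direction. Its second probe set differed by log2 2.92. Slc25a31 differed 4.29-fold (log2 2.10), Tex19.2 2.93-fold (log2 1.55), Tex19.1 2.46-fold (log2 1.30) and Ddx4 2.04-fold (log2 1.03). Asz1, Mael, Mov10l1 and Piwil2 differed by log2 0.73, 0.69, 0.61 and 0.49, and the second Asz1 probe set by 0.23. The members' median was 1.03, against -0.05 over all measured genes. With 1 array a line, these differences have no test.

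At day 0 the order was the other way. The deletion line was lower for 8 of 9 members, against 54.4% of all genes, with a median of -0.79 against -0.05. Mael, lower by log2 -1.11, and Asz1, at 6.35 against 7.35, were the 2 members at least 2-fold lower (2.82% of all genes), and none was 2-fold higher (3.15%). Asz1 lay right at the 2-fold limit, and its second probe set read 6.50 (deletion) against 6.64 (full-length), far less than 2-fold apart. Dazl differed by log2 -0.92, Tex19.1 by -0.84, Tex19.2 by -0.79, Piwil2 by -0.75, Mov10l1 by -0.54 and Ddx4 by -0.06, and Slc25a31 was higher by 0.60. Lower at day 0 and higher at day 7 were thus 8 of 9 members, against 21.7% of all genes. At day 4 the lines were closer, with a median of 0.03, 5 members higher (46.2% of all genes) and none 2-fold apart (2.43% of all genes higher and 3.54% lower). There Asz1 was lower by log2 -0.99 in the deletion line and Dazl higher by 0.62. The second Asz1 probe set read 7.30 (deletion) against 8.49 (full-length) at day 4, more than 2-fold apart.

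**Figure D3:**
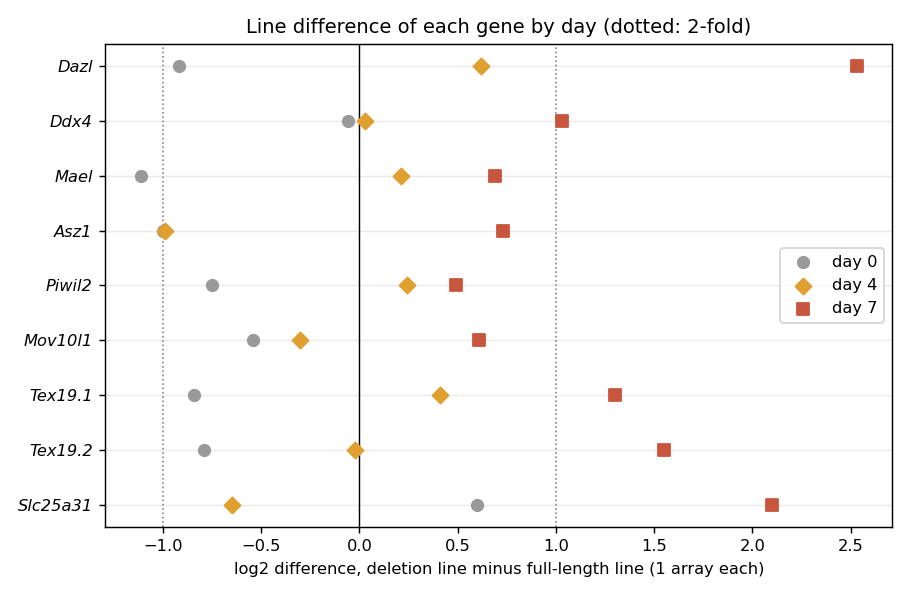
Log2 difference of each member's level, deletion line minus full-length line (horizontal axis), at day 0 (grey circles), day 4 (yellow diamonds) and day 7 (red squares), 1 array against 1, with dotted lines at a 2-fold difference. The day 7 points lie between 0.49 and 2.53, and 8 of the 9 day 0 points lie below 0.

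Within the deletion line all 9 members were higher at day 7 than at day 0 (52.1% of all genes), 6 of them at least 2-fold (6.25%) and none 2-fold lower (4.72%). The largest difference was that of Tex19.2, 17.4-fold (log2 4.12), which 6 genes of 13277 reached, itself included. Asz1 was 10.9-fold higher, Dazl 8.28-fold, Slc25a31 4.89-fold, Tex19.1 4.79-fold and Mael 3.25-fold. Against day 4, which leaves out the day 0 array with conflicting labels, all 9 were again higher (47.4% of all genes) and the 6 just named at least 2-fold (4.78%, with 5.97% lower), from log2 1.03 for Mael to 3.46 for Dazl and 3.75 for Tex19.2. In the full-length line 4 members were higher and 5 lower at day 7 than at day 0 (53.6% of all genes higher). Asz1 and Tex19.2 were at least 2-fold higher there, by log2 1.72 and 1.78 (9.96% of all genes), and Piwil2 at least 2-fold lower, by log2 -1.16 (4.27%). Against day 4, Tex19.2, Dazl and Tex19.1 were at least 2-fold higher in the full-length line, by log2 2.18, 1.55 and 1.32 (5.2% of all genes, with 3.14% lower and no member). Between days 0 and 4 the full-length line had Slc25a31 and Asz1 at least 2-fold higher, by log2 1.31 and 1.26 (8.14% of all genes), and Dazl and Tex19.1 at least 2-fold lower, by log2 -1.95 and -1.20 (5.03%). The deletion line had only Asz1 that far apart between these days, higher by log2 1.27 (6.26% of all genes, with 4.07% lower).

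The day 0 to day 7 difference was thus more positive in the deletion line for each measured member, by at least log2 1.09 at its brightest probe set. For Asz1 the size depends on the probe set. Its brightest differed by log2 3.45 (deletion) and 1.72 (full-length), its second by only 2.82 and 2.45, less than log2 1 apart. The second Dazl probe set differed by 3.64 and -0.20. A gap of at least log2 1 in this direction was found in 6.54% of all genes, and one as large in the other direction in 10.8% and no member. For 5 members (Dazl, Mael, Piwil2, Mov10l1 and Ddx4; 18.6% of all genes) day 7 was below day 0 in the full-length line and above it in the deletion line. Of these, Dazl, Ddx4 and Mael differed in the full-length line by -0.40, -0.28 and -0.10, and Piwil2 in the deletion line by 0.08, each less than its residual SD of 0.65, 0.31, 0.41 and 0.36. The gap was 3.45 for Dazl, 2.34 for Tex19.2, 2.14 for Tex19.1, 1.80 for Mael, 1.73 for Asz1, 1.50 for Slc25a31, 1.24 for Piwil2, 1.15 for Mov10l1 and 1.09 for Ddx4. The median was 1.73, against -0.01 over all genes. Among the lists described below, other piRNA pathway genes had a median gap of 0.36, with 5 of 20 at least log2 1. Median gaps were 0.71 for primordial germ cell, 0.63 for pluripotency, 1.03 for extraembryonic endoderm and 1.22 for primitive streak markers, and 0.22 for the repressors. They were -1.3 for trophoblast, -0.03 for feeder fibroblast and -0.32 for somatic gonad markers. Counted from day 4, which leaves out the day 0 array with conflicting labels, the gap was above 0 for all 9 members (46.0% of all genes) and at least log2 1 for 5 of them (5.66%). It was then 2.75 for Slc25a31, 1.91 for Dazl, 1.72 for Asz1, 1.57 for Tex19.2 and 1.00 for Ddx4, and between 0.25 (Piwil2) and 0.91 (Mov10l1) for the rest. This gap joins the line differences of days 0 and 7, so it is not separate evidence from them. It has no test, since 1 array per line and day leaves none for an interaction, and the members were chosen with results of these arrays known.

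**Figure D4:**
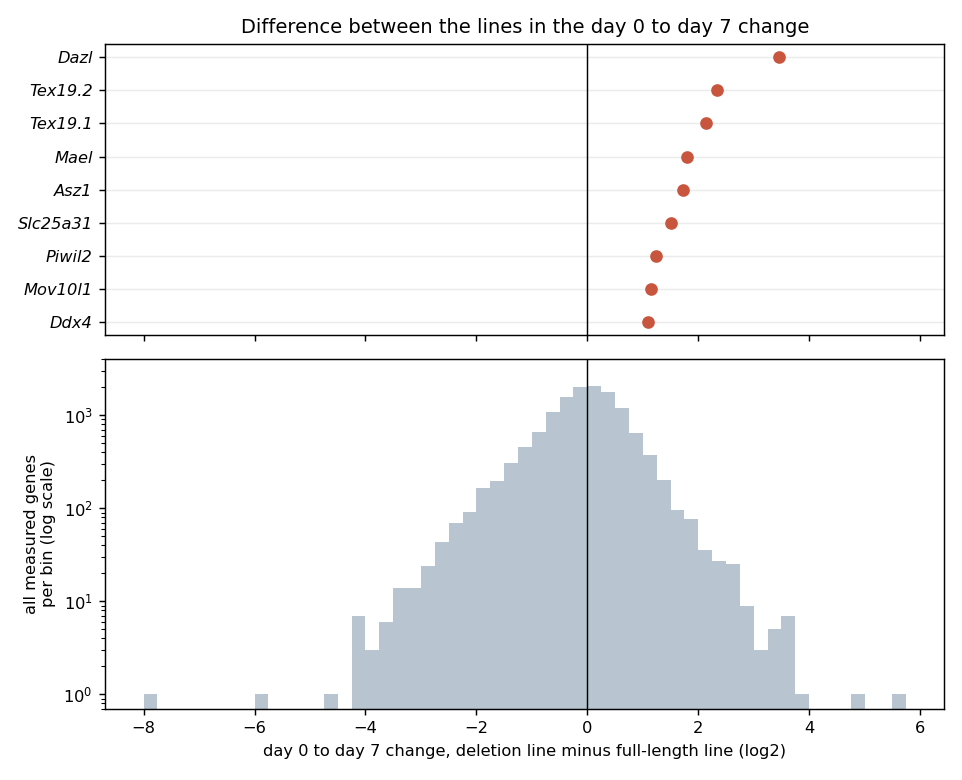
Day 0 to day 7 difference in the deletion line minus that in the full-length line (horizontal axis, log2) for each of the 9 measured members (upper panel) and for all 13277 measured genes in bins of 0.25 (lower panel, number of genes on a log scale). The members, each at its brightest probe set, lie between 1.09 and 3.45, and 6.54% of all genes lie at 1 or above.

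The mean effects over both lines or all days were tested with limma (two-sided, Benjamini-Hochberg over 13277 genes). Of the members, 1 was called in 1 comparison: Tex19.2 rose from day 0 to day 7 (log2 2.95, SE 0.50, 7.73-fold, adjusted p = 0.0484, higher in both lines). In that comparison 1.03% of all genes were called, and 0.64% as higher. The call was lost in 7 of 9 other settings and whenever 1 array was left out. The adjusted p ranged from 0.018 to 0.386 over these, and without the deletion line's day 0 array the difference was log2 2.17 (adjusted p = 0.343). Asz1 had a log2 difference of 2.58 (SE 0.46, adjusted p = 0.0534), Slc25a31 of 1.54 (adjusted p = 0.21), Dazl of 1.32 (adjusted p = 0.34) and Tex19.1 of 1.19 (adjusted p = 0.21). Leaving out 1 array at a time moved Slc25a31 between 0.48 (without the deletion line's day 7 array) and 2.6 (without the full-length line's), Dazl between -0.01 and 2.66, and Tex19.1 between 0.34 (without deletion day 0) and 2.04 (without full-length day 0). For Asz1 the range was 1.72 to 3.45. An unadjusted p under 0.05 was found for 4 members and 17.3% of all genes. From day 4 to day 7 no member was called (0.0151% of all genes were), and 4 had an unadjusted p under 0.05 (11.9% of all genes). These were Tex19.2, with a log2 difference of 2.96 (adjusted p = 0.10), Dazl with 2.50 (adjusted p = 0.235), Tex19.1 with 1.76 (adjusted p = 0.20) and Asz1 with 1.32 (adjusted p = 0.32). Without the deletion line's day 7 array these were 1.99, 1.16, 1.01 and 0.46, and without the full-length line's 3.94, 3.84, 2.52 and 2.18. From day 0 to day 4 no member was called (1.58% of all genes), with log2 differences from -1.18 for Dazl (adjusted p = 0.43) to 1.26 for Asz1 (adjusted p = 0.227), and 1 member, Asz1, had an unadjusted p under 0.05 (16.2% of all genes). For the line difference no member and no gene was called (0.0% of all genes). There 0 members and 12.2% of all genes had an unadjusted p under 0.05, with a member median of 0.25 and a range from -0.42 for Asz1 to 0.74 for Dazl. The additive fit counts the divergence of the lines over time as residual spread.

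Of 26 other listed genes of the piRNA pathway, 20 were measured. At day 7, where all 9 measured members were higher in the deletion line, 9 of these were higher and 11 lower, with a median of -0.06. Over all genes 44.8% were higher and 53.4% lower. At least 2-fold higher were 2 of the 20 and 2-fold lower 2 (3.95% and 8.92% of all genes). Tdrd12, a Tudor protein, read 11.48 (deletion) and 9.52 (full-length) at day 4, and 10.91 and 10.62 at day 7. With limma 3 of the 20 were called from day 0 to day 7, all higher (0.64% of all genes). From day 0 to day 4 also 3 were called, 1 higher and 2 lower (0.881% and 0.7% of all genes). Tdrd7 rose by log2 2.08 from day 0 to day 7 (adjusted p = 0.037), Gtsf1, a PIWI cofactor, by 1.33 (adjusted p = 0.036) and Tex15, a gene of male meiosis and piRNA-directed silencing, by 1.34 (adjusted p = 0.049). From day 0 to day 4 Morc1, a transposon silencing factor, fell by 2.38 on the log2 scale (adjusted p = 0.015). Piwil4 (MIWI2) also fell, from 7.14 (full-length) and 7.67 (deletion) to the floor in both lines (adjusted p = 0.041 on the floored values), while Tex15 rose by log2 1.50 (adjusted p = 0.033). At day 7 Tdrd7 read 8.51 in the deletion line and 9.51 in the full-length line, and Gtsf1 was lower by log2 -0.78, where the members were higher. Stk31, named after its values were seen, was higher there by log2 1.84, and Morc1 by 1.02.

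Of 15 repressors of germ cell genes, all measured, none was called by limma in any tested comparison. An unadjusted p under 0.05 was found for 3 higher and 1 lower in the line difference (5.05% and 7.19% of all genes), for 1 lower from day 0 to day 4 (6.09%), 1 lower from day 4 to day 7 (5.63%) and 2 lower from day 0 to day 7 (6.58%). At day 7 their median line difference was 0.25, with 10 higher and 5 lower in the deletion line (44.8% and 53.4% of all genes). L3mbtl2 and Max, subunits of the Polycomb complex PRC1.6 that binds such promoters, were higher there by log2 1.13 and 0.83, Mga, another subunit, by 0.88, and E2f6 was lower by log2 -0.81.

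Markers of other cell types also differed between the lines at day 7, and their part in the members' values was not tested. Of 8 primordial germ cell markers 7 were measured, and 5 were higher in the deletion line, against 44.8% of all genes. Dppa3 read 11.28, 11.56 and 13.16 in the deletion line and 12.07, 10.51 and 12.12 in the full-length line, and Prdm14 9.62, 8.90 and 10.37 and 9.42, 8.05 and 9.06. At day 7 the 2 lower ones were Tfap2c, at 11.42 (deletion) and 11.62 (full-length), and Dnd1, at 9.11 and 9.22. Nanos3, a defining marker, was not measured. The summed signal of this list was 28200 on the deletion line's day 7 array and 13200 to 19400 on the others. Ifitm3, at 13.61 (deletion) and 13.16 (full-length) at day 7, and Dppa3 had the highest levels of the list at day 7. They thus weigh most in these day 7 sums. All 7 pluripotency markers were higher in the deletion line at day 7, by log2 0.12 to 0.74, with a sum of 74000 against 52600 in the full-length line. All 8 extraembryonic endoderm markers were higher, by 0.44 to 2.72, with sums of 5040 and 1800, and all 7 trophoblast markers lower, with a median of -1.47 and sums of 14900 and 44600. Feeder fibroblast markers summed to 14000 in the deletion line and 6270 in the full-length line at day 0, where 8 of 9 members were lower in the deletion line. At day 7 they summed to 1990 and 1560, with Col1a2 the brightest, at 9.40 (deletion) and 9.87 (full-length). Of the 8, 5 were higher and 2 lower in the deletion line then, with a median of 0.44. Col3a1, Postn and S100a4 were at least 2-fold higher, by log2 2.44, 2.25 and 1.76 (3.95% of all genes), and none was 2-fold lower (8.92%). Of 7 primitive streak markers T, Mixl1, Gsc and Lhx1 were not measured. At day 7 Foxa2, which also marks endoderm, was higher in the deletion line by log2 1.86 and Eomes, which trophoblast also expresses, by 0.69, and Mesp1 was lower by log2 -0.95, at the floor in the deletion line. The list summed to 368 to 774 over the 6 arrays. Somatic gonad markers, with Amh, Sox9 and Nr5a1 not measured, summed to 547 to 780 on all 6 arrays.

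**Figure D5:**
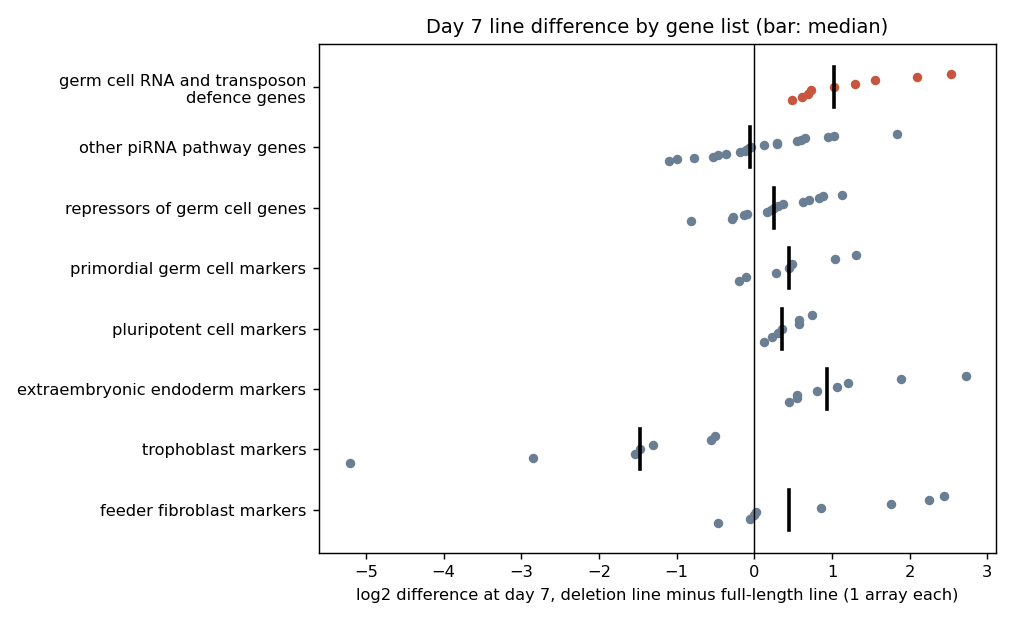
Log2 difference at day 7, deletion line minus full-length line (horizontal axis), of each measured gene (points) in 8 lists, with a bar at each list's median and the 9 members in red. The members lie at 0.49 or above, the other piRNA pathway genes on both sides of 0 and the trophoblast markers below 0.

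The members differed in how closely they followed each other. Over the 6 arrays, Pearson's r of a member with the mean of the other members was 0.944 for Tex19.1, 0.929 for Tex19.2, 0.897 for Mael, 0.885 for Dazl, 0.784 for Ddx4, 0.723 for Slc25a31, 0.7 for Asz1, 0.53 for Mov10l1 and -0.02 for Piwil2. Of 1100 other genes with a range of at least log2 2, those most like the members' mean were Pramel6 (r of 0.982), Gkn2 (0.979), Nlrp4c (0.978), Pramel7 (0.976) and Kdm5d (0.974). Pramel6 read 10.44 on the deletion line's day 7 array and at most 6.41 elsewhere, and Kdm5d, a histone demethylase gene, 9.36 and at most 7.60. These values describe 6 arrays, of which that array lies far from the rest.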

How the data were processed

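RNA of 6 samples was measured on Affymetrix mouse arrays, 1 per line and day. The authors made the deposited signals with MAS5, per the submitters' processing notes. The deposited values were read as log2 from the values themselves: the trimmed mean of 2 to their power was 496.7 to 496.9 on all 6 arrays. The MAS5 version, the scaling target and detection calls are also not given here. Depth does not apply to arrays, and their number limits the precision.

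Signals were set to at least the median of the arrays' 40th percentiles (signal 41.2), and log2 was taken again. The floor is a percentile, not a measured background. Names came from the platform annotation, dated 2016: 34945 probe sets had 1 symbol, 932 several and 9160 none. Line and day were fitted additively in limma 3.58.1 (R 4.3.3) over all 13277 measured genes, with trended variances and an adjusted p threshold of 0.05. Residual degrees of freedom were 2, and the prior contributed 5.63. Single arrays were compared without a test, and a gene counted as 2-fold apart if its brighter array also reached 2 times the floor. No label speaks of separate cultures, so p-values measure only the spread between these samples. The fit was tested on simulated data. The members, the gene lists and the alternatives were chosen with earlier results of these data known. Named genes were all members, up to 4 of the widest range and any called gene of each other list, where described, and the 5 genes of most like pattern.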

Additional observations from a re-analysis of the deposited data

Results flagged for a closer look

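In 5 members the day 7 level was below day 0 in the full-length line and above it in the deletion line, a contrast found in 18.6% of all measured genes. The difference between the lines in this change was log2 3.45 for Dazl, 1.80 for Mael, 1.24 for Piwil2, 1.15 for Mov10l1 and 1.09 for Ddx4. It was not tested, since each line had 1 array per day. The opposite direction rests on small values: day 7 minus day 0 in the full-length line was -0.40 for Dazl, -0.28 for Ddx4 and -0.10 for Mael, and in the deletion line 0.08 for Piwil2, all within the residual SD (0.65, 0.31, 0.41 and 0.36).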

How the results depend on the processing

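No member was called for the line difference or from day 0 to day 4 in any setting run. From day 0 to day 7 the number of members called was 1, and it became 2 with the floor at the 25th percentile or with arrays centred to equal medians. It became 0 with the floor at the 50th percentile, with a pseudocount of 16 and no floor, with quantile normalization, with probe sets averaged, without the filter on dim genes, without a variance trend, without the line in the model, and with each of the 6 arrays left out in turn (0 to 0). From day 4 to day 7 it was 0 and became 1, Tex19.2, with equal medians. Over all genes, calls from day 0 to day 7 ranged from 0 to 227, against 137, from day 0 to day 4 from 0 to 319, against 210, from day 4 to day 7 from 0 to 44, against 2, and for the line difference from 0 to 3, against 0. Members 2-fold apart at day 0 numbered 1 rather than 2 with the pseudocount and with probe sets averaged and 3 with equal medians, where Dazl was at -1.02, and at day 4 they numbered 1 rather than 0 with probe sets averaged. Leaving out 1 array moved the line difference of Dazl between -0.15 (without either day 7 array) and 1.58, its day 0 to day 4 difference between -2.43 and 0.07 (without full-length day 0), its day 0 to day 7 difference between -0.01 (without the deletion line's day 7 array) and 2.66, and the day 4 to day 7 difference of Slc25a31 between -0.21 (without the deletion line's day 7 array; -0.14 without its day 4 array) and 1.92, so these changed sign. Members with a gap of at least log2 1 between the lines' later changes numbered 5 rather than 9 when counted from day 4, an alternative chosen after seeing the data. In the 4 settings that change members' values (pseudocount, equal medians, quantile normalization, averaged probe sets), 9 members were higher in the deletion line at day 7 and 8 lower at day 0, and the gap between the lines' day 0 to day 7 differences was at least log2 1.05 for each. The lowest, 1.05, was that of Asz1 with its probe sets averaged, and its second probe set alone had a smaller gap. The other floors and the missing filter leave the members' values as they are. With equal medians the median gap over all genes shifted from -0.01 to 0.11. Samples could not be paired by culture, because each line and day had 1 sample and the labels give no replicate numbers. The line itself is a term of the fit, so days are compared within lines, and without that term Tex19.2 from day 0 to day 7 had an adjusted p of 0.0919 by limma. The cause of these changes was not tested.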
